A study of Mus musculus with 6 samples.

Results

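Early B lineage genes were read in osteoclast cultures of 2 genotypes. The 9 genes were Dntt, Rag1, Rag2, Vpreb1, Igll1, Vpreb3, Cd79b, Pax5 and Ebf1, taken by gene name from all transcript spots of the arrays, and they had 13 of 56605 probes and were 9 of 37074 gene names. The osteoclasts were grown from bone marrow of 3 Ano1fl/fl mice, whose Ano1 alleles are flanked by loxP sites, and of 3 Ctsk-Cre;Ano1fl/fl littermates, which carry the same alleles plus Cre driven by the cathepsin K gene, a gene of mature osteoclasts. All 6 cultures received RANKL for 5 days, and for osteoclast cultures in general the methods describe marrow of mice 6 to 8 weeks old, kept 1 day in M-CSF, from which the suspension cells were taken on. The age of the array mice themselves was not given in the sources used here. Each mouse gave 1 one-colour Agilent array.

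Ano1, the targeted calcium-activated chloride channel, had 1 probe (A_55_P2038747), with processed signals of 3.28, 3.22 and 3.91 in Ano1fl/fl and 3.23, 3.25 and 3.81 in Ctsk-Cre;Ano1fl/fl. No array had it well above background, so it could not check the genotype labels, and every direction below rests on those labels. An exchange of the 2 labels would turn every direction, and the Ano1 probe gave no check for one. The osteoclast identity was checked with 10 marker genes. All 10 were well above background on the 3 Ctsk-Cre;Ano1fl/fl arrays and 10 of 10 were higher there, with a median log2 difference of 3.02. Over all gene names 23% were higher and 28.5% lower at an adjusted p under 0.05 in limma. Those with the largest rises were Calcr, the calcitonin receptor, at 8.89 ± 0.19 (SE, n = 3 per group), which was well above background on 2 of the 3 Ano1fl/fl arrays, and Oscar, an osteoclast receptor, at 6.48 ± 0.17. Nfatc1, the master factor of osteoclast formation, differed by 0.53 ± 0.09, Acp5, the TRAP gene, by 0.84 ± 0.07 and Mmp9, a matrix protease, by 4.36 ± 0.17, each higher in Ctsk-Cre;Ano1fl/fl as labelled. This direction is opposite to the one the study describes for osteoclast markers in cultures of these genotypes. Ctsk itself, whose gene drives the Cre, had signals of 17000, 16400 and 16800 in Ano1fl/fl and 126000, 129000 and 125000 in Ctsk-Cre;Ano1fl/fl. The scanner software marked 33480 to 34951 of the 59305 transcript spots per array as well above background, and the lowest signal so marked was between 14.2 and 18.4. Log2 signals of the tested probes correlated at 0.994 to 0.997 between arrays of a genotype and at 0.944 to 0.950 between genotypes.

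B cells begin in the bone marrow, where Ebf1, a transcription factor, commits progenitors to the lineage and Pax5, acting after it, holds them there. Rag1 and Rag2 cut the immunoglobulin genes for V(D)J recombination and terminal transferase, the product of Dntt, adds bases to the cut ends. The first heavy chain is tested on the surface together with a surrogate light chain, made of VpreB and λ5 (Igll1), and the signaling chains Cd79a and Cd79b. As background, terminal transferase and the surrogate light chain are shut off as B cells mature, while Pax5, Ebf1 and Cd79b remain in mature B cells.

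The early B lineage genes did not move together. Of the 13 probes, 9 probes of 6 genes were well above background on all 6 arrays and were tested. The terminal transferase gene Dntt and the surrogate light chain gene Vpreb1 were lower in Ctsk-Cre;Ano1fl/fl, whereas Vpreb3, Cd79b, both probes of Pax5 and all 3 probes of Ebf1 were higher. In counts, 2 of the 9 tested probes were lower and 7 were higher at an adjusted p under 0.05 in limma, where 30.6% and 21.8% of all 31848 tested probes were (52.4% in either direction). The groups of 3 arrays did not overlap for 9 of 9 probes, 2 lower and 7 higher, and over all tested probes this held for 64%, with 37.1% lower and 26.9% higher. At more than 2-fold, 1 probe was lower and 7 were higher, against 8.11% and 8.91% of all probes. The median log2 difference was 1.96 for the 9 tested probes and -0.0869 over all probes. Counted by genes, 2 of the 6 tested genes were lower and 4 were higher, with 28.5% and 23% of all 20650 gene names as background. The remaining 4 probes, of Rag1, Rag2 and Igll1, were below the background mark on all 6 arrays and were not tested.

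**Figure D1:**
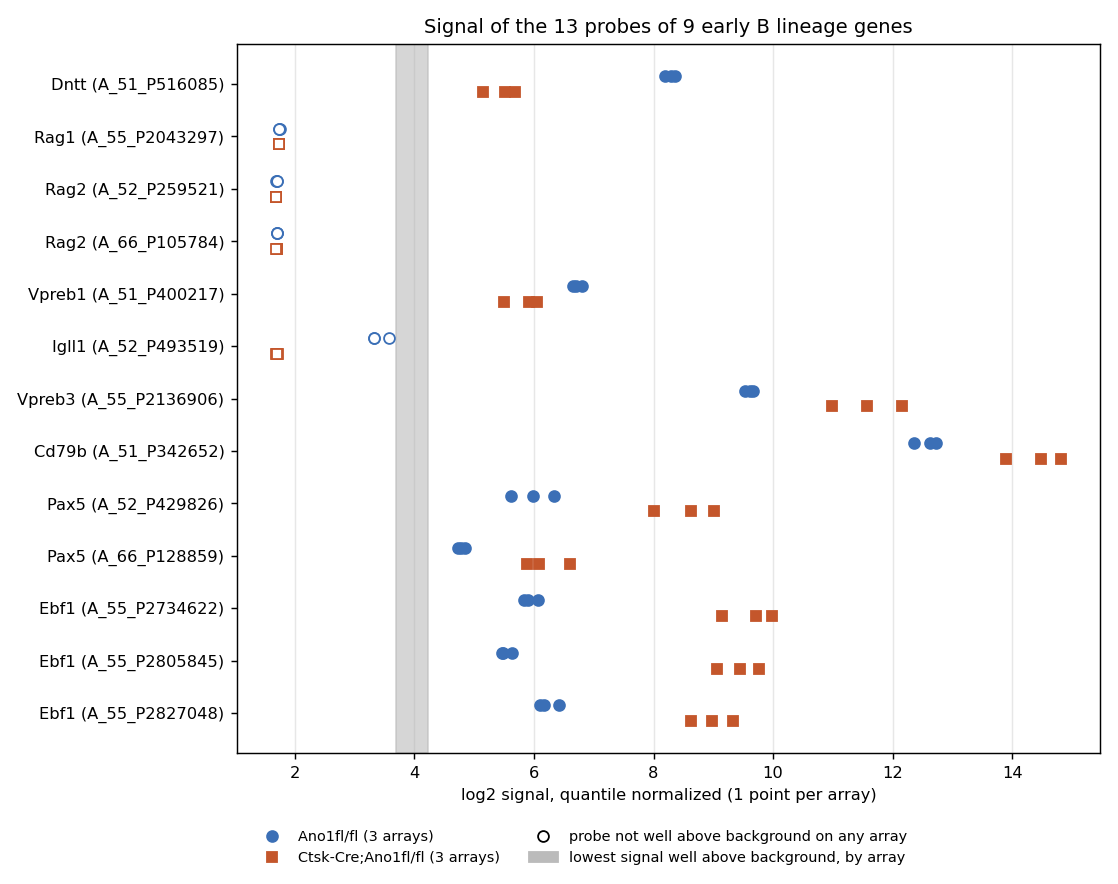
Quantile-normalized log2 signal (horizontal axis) of the 13 probes of the 9 early B lineage genes, 1 point per array, with circles for 3 Ano1fl/fl and squares for 3 Ctsk-Cre;Ano1fl/fl arrays. Open symbols mark probes not well above background on any array, and the grey band spans the lowest log2 signals well above background, 3.70 to 4.22, over the 6 arrays. The circles of Dntt and Vpreb1 lie to the right of the squares, and those of Vpreb3, Cd79b, Pax5 and Ebf1 to the left.

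The recombination genes were read first. Dntt was read by probe A_51_P516085 (transcript NM_009345), at chr19:41133936-41133995 on the plus strand of mm9. Its processed signal, a linear intensity, was 277, 363 and 378 in Ano1fl/fl and 46.8, 30.3 and 47.6 in Ctsk-Cre;Ano1fl/fl. Each Ctsk-Cre;Ano1fl/fl value was thus below every Ano1fl/fl value, and all 6 were well above background. After quantile normalization the mean log2 signal was 8.29 ± 0.08 (SD, n = 3) against 5.45 ± 0.27 (SD, n = 3). The difference of -2.84 ± 0.15 (SE) is a 7.17-fold lower signal, with an adjusted p of 3.99e-05 in limma. Under the alternative settings the log2 difference of Dntt lay between -3.05 and -1.79, the smaller size coming from normexp background correction.

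Rag1, the catalytic subunit of the recombinase, gave signals of 3.25, 3.12 and 3.78 in Ano1fl/fl and 3.29, 3.25 and 3.31 in Ctsk-Cre;Ano1fl/fl at chr2:101481051-101481110 on the minus strand of mm9 (A_55_P2043297). The first probe of Rag2, its partner subunit, gave 3.15, 3.03 and 3.69 against 3.18, 3.17 and 3.22 (A_52_P259521, chr2:101472445-101472504, plus strand). The second Rag2 probe gave 3.17, 3.07 and 3.70 against 3.24, 3.21 and 3.22 (A_66_P105784, chr2:101470723-101470782). All of these values lay below the lowest signal that was marked as well above background, so the arrays put no level and no fold on the recombinase genes. The adjoining genes Rag1 and Rag2 have no gene starting between them in the RefSeq table, and the nearest of their probes were 8547 bases apart on mm9. A further 12 genes served for the rest of the V(D)J machinery, which rejoins the cut ends and works in every cell type as DNA repair. All 12 were tested, 6 were lower, 3 were higher and 3 did not pass, with a median log2 difference of -0.28. Over all gene names 28.5% were lower and 23% higher. Without normalization between arrays 6 were lower and 1 was higher, and at more than 2-fold 0 were lower and 1 was higher. The largest falls were Hmgb2, a DNA-bending cofactor of the recombinase, at -0.90 ± 0.18 (adjusted p = 0.00628 in limma), and Dclre1c, the Artemis nuclease, at -0.83 ± 0.12 (adjusted p = 0.00189). The largest rises were Xrcc5, the Ku80 subunit, at 1.84 ± 0.18 (adjusted p = 0.000445), and Polm, a polymerase related to terminal transferase, at 0.52 ± 0.15 (adjusted p = 0.0235).

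The surrogate light chain genes sit side by side. In the RefSeq table of GRCm38.p6 no gene starts between Vpreb1 and Igll1, and their probes were 7396 bases apart on mm9. Vpreb3 lies on another chromosome. RefSeq promoter windows, 250 bases before to 50 bases after the annotated start, are shown for the 3 genes because the first 2 are adjoining and Vpreb3 moved the other way. They come from GRCm38.p6, at chr16:16869206-16869505 (minus strand), chr16:16863936-16864235 (minus strand) and chr10:75948050-75948349 (plus strand), and are written in the direction of the gene. Capitals mark matches, on either strand, to 4 motifs, the EBF core CCCNNGGG, the E boxes CAGGTG and CAGCTG, and the Ikaros core TGGGAA.

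Vpreb1: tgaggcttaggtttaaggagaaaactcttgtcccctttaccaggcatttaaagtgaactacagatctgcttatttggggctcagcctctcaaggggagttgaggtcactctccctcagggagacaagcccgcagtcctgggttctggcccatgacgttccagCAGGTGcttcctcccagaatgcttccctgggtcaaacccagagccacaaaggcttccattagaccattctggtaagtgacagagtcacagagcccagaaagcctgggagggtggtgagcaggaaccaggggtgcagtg
Igll1: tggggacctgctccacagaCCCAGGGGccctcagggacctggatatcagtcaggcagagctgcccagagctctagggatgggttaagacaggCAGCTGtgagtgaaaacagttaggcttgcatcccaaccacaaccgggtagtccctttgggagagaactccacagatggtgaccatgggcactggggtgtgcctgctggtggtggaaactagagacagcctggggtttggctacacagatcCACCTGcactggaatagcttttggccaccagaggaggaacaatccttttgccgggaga
Vpreb3: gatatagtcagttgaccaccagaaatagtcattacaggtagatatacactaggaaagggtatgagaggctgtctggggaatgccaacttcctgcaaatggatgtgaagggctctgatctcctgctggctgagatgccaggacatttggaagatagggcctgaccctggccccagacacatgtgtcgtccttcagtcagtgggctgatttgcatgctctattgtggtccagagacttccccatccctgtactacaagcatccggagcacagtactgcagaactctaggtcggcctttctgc

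The Vpreb1 window held 1 E box CAGGTG and the Igll1 window held 1 EBF core and 1 E box of each kind. None of the 4 motifs was found in the Vpreb3 window. Promoter windows were held for 8 of the 9 genes, Ebf1 having 2, and Cd79b had none in the table. Over these 9 windows CCCNNGGG was found in 1, CAGGTG in 3, CAGCTG in 2 and TGGGAA in 2. Among all 32544 windows of the table the shares were 13.7%, 20.3%, 16.4% and 25.4%, so the motifs are common ones. A match is a stretch of letters and not a measured binding site.

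Vpreb1 signals were 107, 112 and 126 in Ano1fl/fl and 62.6, 38.1 and 61.1 in Ctsk-Cre;Ano1fl/fl (A_51_P400217, NM_016982, chr16:16868559-16868618, minus strand of mm9). The lowest Ano1fl/fl value stayed above the highest Ctsk-Cre;Ano1fl/fl value. Mean log2 signals were 6.72 ± 0.08 and 5.82 ± 0.29 (SD, n = 3 each). Vpreb1 was 1.87-fold lower, with a log2 difference of -0.90 ± 0.15 (SE) and an adjusted p of 0.00341 in limma, and it was the smallest difference of the 9 probes. It lay between -1.13 and -0.49 over the alternative settings, the smaller size again with normexp. Vpreb2, a close copy of Vpreb1, was below that mark on all 6 arrays, with 6.42, 9.24 and 4.39 against 13.1, 8.24 and 6.06. The array design assigns the Vpreb2 probe to transcripts of both genes, so the reading of Vpreb2 is uncertain as to gene, and it assigns the Vpreb1 probe to Vpreb1 alone.

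Igll1 was near the limit of detection. Its probe A_52_P493519 (NM_001190325, chr16:16861104-16861163, minus strand of mm9) gave 9.27, 10.4 and 13.9 in Ano1fl/fl. In Ctsk-Cre;Ano1fl/fl it gave 3.26, 3.18 and 3.24. The scanner software marked it as significantly above local background on 3 Ano1fl/fl arrays and on 0 Ctsk-Cre;Ano1fl/fl arrays, yet it was well above background on none of the 6. The groups did not overlap, but with both below the scanner's stricter mark no fold is given. The sequence of this probe is shown because it is the only reading of λ5 on the arrays.

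Igll1 probe: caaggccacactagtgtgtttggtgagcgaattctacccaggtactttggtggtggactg

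Vpreb3, which encodes a VpreB-related protein that binds immunoglobulin chains inside the cell, went the opposite way from Vpreb1. Signals of its probe A_55_P2136906 (NM_009514, chr10:75412326-75412385, plus strand of mm9) were 691, 864 and 957 in Ano1fl/fl and 3070, 1640 and 4250 in Ctsk-Cre;Ano1fl/fl. The groups did not overlap, and replicate 2 of Ctsk-Cre;Ano1fl/fl was the closest to the Ano1fl/fl arrays. Mean log2 signals were 9.61 ± 0.07 and 11.57 ± 0.58 (SD, n = 3 each). The rise of 1.96 ± 0.28 (SE) is 3.88-fold, with an adjusted p of 0.00174 in limma, and it ranged from 1.67 to 2.26 over the alternatives.

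Granule protein genes of early myeloid cells fell with Dntt and Vpreb1. Terminal transferase and Vpreb1 transcripts can also be found in multipotent lymphoid progenitors, so 8 genes of progenitors and of the primary granules of early myeloid cells were read alongside. Of the 8, 6 were lower, 0 were higher and 2 did not pass, with a median log2 difference of -3.33 (28.5% lower and 23% higher over all gene names). Their summed signal was 121000 to 134000 in Ano1fl/fl and 8810 to 16500 in Ctsk-Cre;Ano1fl/fl. The largest falls were Prss57, a granule protease, at -3.65 ± 0.28 (adjusted p = 0.000156 in limma), which only 2 of the 3 Ctsk-Cre;Ano1fl/fl arrays showed well above background, and Prtn3, proteinase 3, at -3.46 ± 0.32 (adjusted p = 0.000352). The other falls were those of the granule genes Mpo, Ctsg and Elane, at -3.41, -3.40 and -3.25, and of the progenitor marker Cd34, at -1.43. The 2 that did not pass were the progenitor receptors Kit, at -0.39 ± 0.15 (adjusted p = 0.0713), and Flt3, at -0.35 ± 0.30 (adjusted p = 0.37). The part of these genes in the falls of Dntt and Vpreb1 was not tested. In bulk RNA, fewer cells of a type and less RNA per cell cannot be told apart.

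Cd79b, the Igβ signaling chain, was well above background throughout. Probe A_51_P342652 (NM_008339, chr11:106172780-106172839, minus strand of mm9) gave 5070, 7250 and 8080 in Ano1fl/fl and 22500, 12400 and 27000 in Ctsk-Cre;Ano1fl/fl. Every Ctsk-Cre;Ano1fl/fl array was above every Ano1fl/fl array. Mean log2 signals were 12.57 ± 0.18 and 14.40 ± 0.47 (SD, n = 3 each). Cd79b rose 3.55-fold, a log2 difference of 1.83 ± 0.24 (SE) with an adjusted p of 0.00131 in limma, and between 1.56 and 2.08 over the alternatives. Its partner Cd79a, the Igα chain, gave 60.6, 64.7 and 76.9 against 525, 229 and 535, without overlap. Its log2 difference was 2.79 ± 0.26 (SE), with an adjusted p of 0.000328 in limma.

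Genes around the pre-B cell receptor and the IL-7 receptor, the growth signal of early B cells in the mouse, were read as 1 list. Of 20 listed genes 19 were tested, and 12 were higher, 3 were lower and 4 did not pass, with a median log2 difference of 0.65 (28.5% lower and 23% higher over all gene names). Without normalization between arrays 9 were higher and 3 lower, with a median of 0.37, and at more than 2-fold 6 were higher and 0 lower. Among the rises was that of the kinase Blk at 3.64 ± 0.48 (adjusted p = 0.0013 in limma), which was well above background on 1 of the 3 Ano1fl/fl arrays. Its mean log2 signal of 3.22 in Ano1fl/fl lay below the background mark, so the size of that rise is uncertain. The largest falls were Il2rg, the receptor chain that IL-7 shares with other cytokines, at -0.68 ± 0.10 (adjusted p = 0.00177), and the kinase Btk at -0.63 ± 0.09 (adjusted p = 0.00162). Both are also expressed in myeloid cells. Rises of the list are not particular to B cells either. Blnk, Lyn, Prkcb and Syk, counted as higher, had mean log2 signals of 14.96, 14.61, 13.66 and 13.63 in Ano1fl/fl. Cd79a stood at 5.95 there, and the study places Syk in osteoclast signaling. The cell source of the rises was not tested. The third lower gene was Il7r, the IL-7 receptor chain itself, at -0.39 ± 0.08 (adjusted p = 0.00903). On the IL-7 side Jak1 and Stat5a, a kinase and a factor of its signal, were higher by 0.55 ± 0.09 and 0.58 ± 0.12 (adjusted p = 0.00292 and 0.00757). Jak3 at 0.17, Stat5b at -0.03 and the progenitor receptor Flt3 at -0.35 did not pass, nor did Plcg2, a phospholipase of the B cell receptor, at -0.21.

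Of 12 markers of mature B cells, 8 were found by name on the arrays, and 6 were higher, 0 were lower and 2 did not pass, with a median log2 difference of 2.51 (23% higher and 28.5% lower over all gene names). Under normexp the median was 1.61, with 6 higher and 1 lower, and without normalization between arrays 5 were higher and 1 lower. Ms4a1, the CD20 gene, differed by 2.85 ± 0.25 and Cd22, an inhibitory receptor, by 2.17 ± 0.20 (adjusted p = 0.000286 and 0.00034 in limma), and Blk stands in this list as well. Cr2, a complement receptor, differed by 0.70 ± 0.19 (adjusted p = 0.0232). The 2 that did not pass were Fcer2a, the CD23 gene, at -0.06 ± 0.40 (adjusted p = 0.915), and Cd72, a B cell inhibitory receptor, at -0.33 ± 0.14 (adjusted p = 0.0974), whose groups did not overlap. The summed signal of the 8 was 22700 to 28900 in Ano1fl/fl and 31600 to 47700 in Ctsk-Cre;Ano1fl/fl. Cd72 was the brightest of the 8, at mean log2 signals of 14.41 in Ano1fl/fl and 14.08 in Ctsk-Cre;Ano1fl/fl, and made up most of the Ano1fl/fl sum. Without Cd72, left out by no set rule, the sums were 2910 to 2940 and 15600 to 31200. Their part in the rises of Cd79b and Vpreb3 was not tested.

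Pax5 was read by 2 probes. Probe A_52_P429826 (ENSMUST00000014174), at chr4:44537936-44537995 on the minus strand of mm9, gave 46.7, 89.9 and 76.4 in Ano1fl/fl and 265, 323 and 499 in Ctsk-Cre;Ano1fl/fl. Probe A_66_P128859 (NM_008782), at chr4:44692322-44692381, gave 27.1, 29.7 and 31.0 against 69.5, 49.1 and 89.2. On both probes the lowest Ctsk-Cre;Ano1fl/fl value exceeded the highest Ano1fl/fl value. The first probe rose from 5.98 ± 0.36 to 8.55 ± 0.52 in mean log2 signal (SD, n = 3 each), which is 5.92-fold, with a log2 difference of 2.57 ± 0.30 (SE) and an adjusted p of 0.000772 in limma. The second rose from 4.79 ± 0.06 to 6.19 ± 0.37 (SD, n = 3 each), which is 2.64-fold, with a log2 difference of 1.40 ± 0.18 (SE) and an adjusted p of 0.00126. The size of both rises depended on background handling. For the first probe the log2 difference was 1.80 under normexp and 2.14 from the series matrix, which carries no background subtraction, and it reached 2.84 at most over the alternatives. For the second it was 0.63 under normexp and 0.78 from the series matrix. The second probe lies toward the 5′ end of its transcript, from base 566, and the first begins at base 7637 of its own. The second probe is printed because it reads the transcript's early portion.

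Pax5 probe A_66_P128859: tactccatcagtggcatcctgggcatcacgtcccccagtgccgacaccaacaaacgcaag

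The log2 differences of the 2 Pax5 probes were 1.16 apart. An exact two-sided permutation test over the 6 arrays gave p = 0.1, the smallest that 3 against 3 arrays allow, and 0.133 after adjustment over the 4 probe pairs compared within Pax5 and Ebf1.

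Ebf1 had 3 probes and the largest rises among the 9 genes. Probe A_55_P2805845, at chr11:44818606-44818665 on mm9, gave 42.3, 54.9 and 53.3 in Ano1fl/fl and 732, 440 and 826 in Ctsk-Cre;Ano1fl/fl. Probe A_55_P2734622, at chr11:44820424-44820483, gave 54.3, 65.4 and 80.9 against 883, 466 and 954. Probe A_55_P2827048 (ENSMUST00000109268), at chr11:44431517-44431576, gave 69.0, 75.6 and 104 against 528, 323 and 616. On none of the 3 probes did the groups overlap, and on each the lowest Ctsk-Cre;Ano1fl/fl array was replicate 2.

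In mean log2 signal the first Ebf1 probe went from 5.53 ± 0.10 to 9.42 ± 0.35 (SD, n = 3 each), a 14.8-fold rise with a difference of 3.89 ± 0.18 (SE) and an adjusted p of 2.5e-05 in limma. The second went from 5.93 ± 0.13 to 9.62 ± 0.42, a 12.8-fold rise with a difference of 3.68 ± 0.21 and an adjusted p of 5.98e-05. The third went from 6.23 ± 0.17 to 8.98 ± 0.35, a 6.75-fold rise with a difference of 2.75 ± 0.19 and an adjusted p of 0.00011. Over the alternative settings the smallest differences of the 3 probes were 2.78, 2.68 and 2.04, all under normexp.

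The third Ebf1 probe differs from the others in where it lies. Its 60 bases were found whole in one of the RefSeq promoter windows of Ebf1 (GRCm38.p6, chr11:44617850-44618149, plus strand), from 85 to 26 bases before the annotated start. The window is printed for this reason, with the bases of the probe in capitals.

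Ebf1: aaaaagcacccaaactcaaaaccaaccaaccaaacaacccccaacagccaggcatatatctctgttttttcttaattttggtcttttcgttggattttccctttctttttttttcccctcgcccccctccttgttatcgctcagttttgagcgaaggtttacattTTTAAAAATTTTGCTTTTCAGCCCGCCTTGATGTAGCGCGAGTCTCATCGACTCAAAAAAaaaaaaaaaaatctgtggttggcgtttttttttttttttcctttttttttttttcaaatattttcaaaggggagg

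The probe thus lies ahead of that annotated start, yet within a transcript of its own, since the array files place it from base 698 of ENSMUST00000109268. Its log2 difference was 1.13 smaller than that of A_55_P2805845 and 0.93 smaller than that of A_55_P2734622 (exact two-sided permutation p = 0.1 for each, the smallest possible, and 0.133 adjusted over the 4 pairs). The differences of A_55_P2734622 and A_55_P2805845 were 0.21 apart (exact permutation p = 0.2, adjusted 0.2). With 3 arrays per genotype these tests could not reach 0.05.

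**Figure D2:**
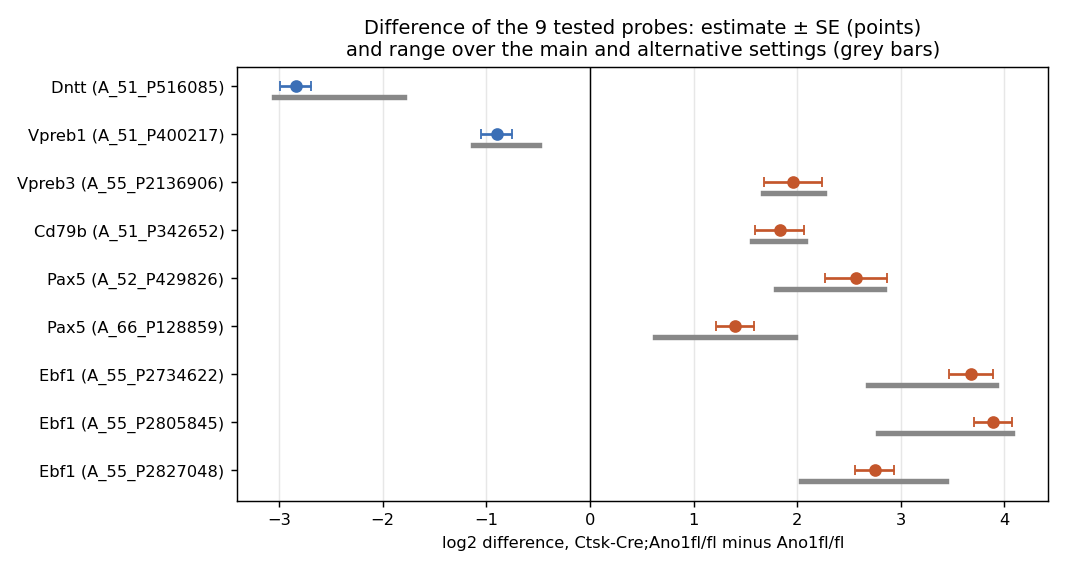
Log2 difference of Ctsk-Cre;Ano1fl/fl minus Ano1fl/fl (horizontal axis) for the 9 tested probes, with points for the limma estimate, error bars for its SE (3 arrays per genotype) and grey bars for the range over the main and alternative settings. The bars of Dntt and Vpreb1 stay left of 0 and the other 7 stay right of 0.

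The relatives of Ebf1 were read separately. Ebf2 failed to reach the background mark on every array, with 3.17, 3.03 and 3.73 in Ano1fl/fl and 5.39, 4.29 and 3.78 in Ctsk-Cre;Ano1fl/fl. One probe of Ebf3 (A_51_P246543) gave 3.94, 3.76 and 7.99 against 49.8, 30.6 and 24.8, and was well above background on 0 Ano1fl/fl and 3 Ctsk-Cre;Ano1fl/fl arrays. It was at least 2.29-fold higher, a limit set by the dimmest detected signal of each Ano1fl/fl array. The probe entered testing through the Ctsk-Cre;Ano1fl/fl arrays alone, so no p-value is set beside that limit. The other Ebf3 probe was below background. Ebf4 was lower by its brighter probe, at 250, 352 and 356 against 106, 82.2 and 117, which is 2.67-fold (log2 difference -1.42 ± 0.12, SE; adjusted p = 0.000273 in limma). Its dimmer probe (A_55_P2011981), at 16.3, 16.5 and 16.1 against 25.2, 12.0 and 14.4, overlapped between groups and was not tested.

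Ebf factors are also known from marrow stromal and fat precursor cells, so 11 stromal markers were read beside Ebf1. Of these 10 were tested, 9 were higher and 1 was lower, with a median log2 difference of 3.90, where 23% of all gene names were higher and 28.5% lower. Pdgfra and Ebf3, among the higher, were well above background on 0 Ano1fl/fl arrays. With only probes well above background on all 6 arrays, 7 of 8 were higher and 1 was lower. The summed signal ran from 2300 to 3410 in Ano1fl/fl and from 56700 to 95400 in Ctsk-Cre;Ano1fl/fl. Col1a1 and Col1a2, the chains of type I collagen, rose by 6.12 ± 0.24 and 5.39 ± 0.23 (adjusted p = 1.57e-05 and 2.11e-05 in limma), and Lepr, the leptin receptor of marrow stroma, was lower by 0.69 on the log2 scale, at -0.69 ± 0.16 (adjusted p = 0.0113). Their part in the rise of Ebf1 was not tested.

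The other transcription factors listed for early B cells mostly rose. Of 23 listed, 22 were tested, and 15 were higher, 3 were lower and 4 did not pass, with a median log2 difference of 1.64 against -0.0585 over all gene names, of which 23% were higher and 28.5% lower. Without normalization between arrays 13 were higher and 3 lower. With only probes well above background on all 6 arrays, 14 of 21 were higher and 3 were lower. Pou2af1, the B cell coactivator OBF-1, rose by 4.50 ± 0.29 (adjusted p = 8.67e-05 in limma), and Irf4, a factor of late pre-B cells and of plasma cells, by 3.48 ± 0.27 (adjusted p = 0.000176). The largest falls were that of Ebf4, given above, and that of Myb, a progenitor factor, at -1.13 ± 0.23 (adjusted p = 0.00786). Ebf2 and Ebf3 belong to both this list and the stromal one, and Ebf3 counts as higher in both. Id3, Id2 and Spi1, also counted as higher, at 2.37, 1.47 and 0.48, are not particular to B cells.

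Other lineages that use some of these genes were read in the same way. Of 12 T and NK cell markers 9 were tested, and 4 were higher, 1 was lower and 4 did not pass, with a median of -0.08 (23% higher and 28.5% lower over all gene names). The lower count was 3 without Ctsk-Cre;Ano1fl/fl replicate 3, 2 without Ctsk-Cre;Ano1fl/fl replicate 1 and 0 at more than 2-fold, with 4 higher each time. Klrb1c, which encodes the NK1.1 antigen, and Lck, a kinase of T cells, each differed by 2.66 (SE 0.14 and 0.23, adjusted p = 4.81e-05 and 0.000265 in limma), and Cd3e, a chain of the T cell receptor complex, by -0.51 ± 0.10 (adjusted p = 0.00692). The pre-T cell receptor gene Ptcra did not reach the background mark on any of the 6. The T and NK markers summed to 2000 to 2350 in Ano1fl/fl and 3940 to 5840 in Ctsk-Cre;Ano1fl/fl, and without Lck to 1560 to 1810 and 1840 to 2050. Of 8 plasmacytoid dendritic cell markers 2 were higher, 1 was lower and 5 did not pass, with a median of 0.03, where 23% and 28.5% of all gene names were higher and lower. Those named by size were Ly6d, also a marker of B-committed lymphoid progenitors, at 2.81 ± 0.27 (adjusted p = 0.000389), Pacsin1 at 0.25 ± 0.08 (adjusted p = 0.0433) and Runx2, also an osteoblast factor, at -0.46 ± 0.16 (adjusted p = 0.0484). The small differences of Pacsin1 and Runx2 were close to the threshold, and under 75th percentile scaling 1 gene of the list was higher and 0 were lower. The sums of this list were 20400 to 22100 and 26700 to 33900, and without Ly6d they overlapped, at 19000 to 20500 and 19300 to 20100. The sign of both medians was not stable, being -0.22 for plasmacytoid dendritic cell markers without normalization between arrays and 0.14 for T and NK markers with no filter on dim probes. The part of either list in the differences of the 9 genes was not tested.

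**Figure D3:**
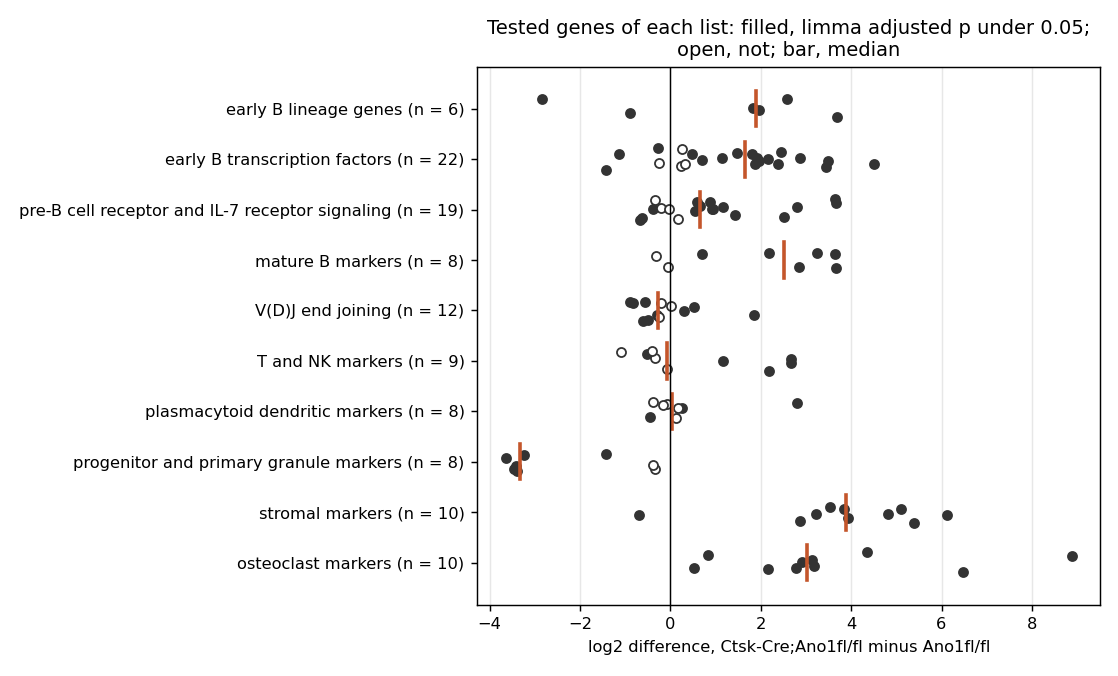
Log2 difference of Ctsk-Cre;Ano1fl/fl minus Ano1fl/fl (horizontal axis) for the tested genes of each list, by the brightest probe of a gene. Filled points pass an adjusted p of 0.05 in limma, open points do not, and vertical bars are list medians, which run from -3.33 for progenitor and primary granule markers to 3.90 for stromal markers.

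The Ctsk-Cre;Ano1fl/fl arrays differed among themselves in the early B lineage genes. After normalization replicate 2 was the lowest of the 3 for 8 of the 9 tested probes, where it was the lowest for 31.3% of all tested probes. Replicate 3 was the highest for 9 of 9, where it was the highest for 29.8% of all probes. Lower and higher members were alike in this, since Dntt and Vpreb1 were also lowest on replicate 2 and highest on replicate 3. The exception was the first Pax5 probe, which was lowest on replicate 1.

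Taking 1 probe per gene, the median deviations of the 6 tested genes from the Ctsk-Cre;Ano1fl/fl mean were 0.08, -0.40 and 0.39 on replicates 1, 2 and 3, on the log2 scale. For mature B cell markers they were 0.22, -0.57 and 0.37, with 8 of 8 lowest on replicate 2. The progenitor and primary granule markers had 0.26, -0.56 and 0.28, with 7 of 8 lowest on replicate 2. Stromal markers stood in another order, at 0.44, -0.01 and -0.35, with 1 of 10 lowest on replicate 2 and 0 of 10 highest on replicate 3. Osteoclast markers had -0.15, 0.20 and -0.03, and 0 of 10 were lowest on replicate 2. Ebf1 was highest on replicate 3 by all its probes, the array on which the median stromal marker was lowest. With 3 arrays these orders are descriptions and were not tested. Leaving out replicate 2 of Ctsk-Cre;Ano1fl/fl kept 7 probes higher and 2 lower past the threshold, with Cd79b at 2.08 and Dntt at -2.70.

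**Figure D4:**
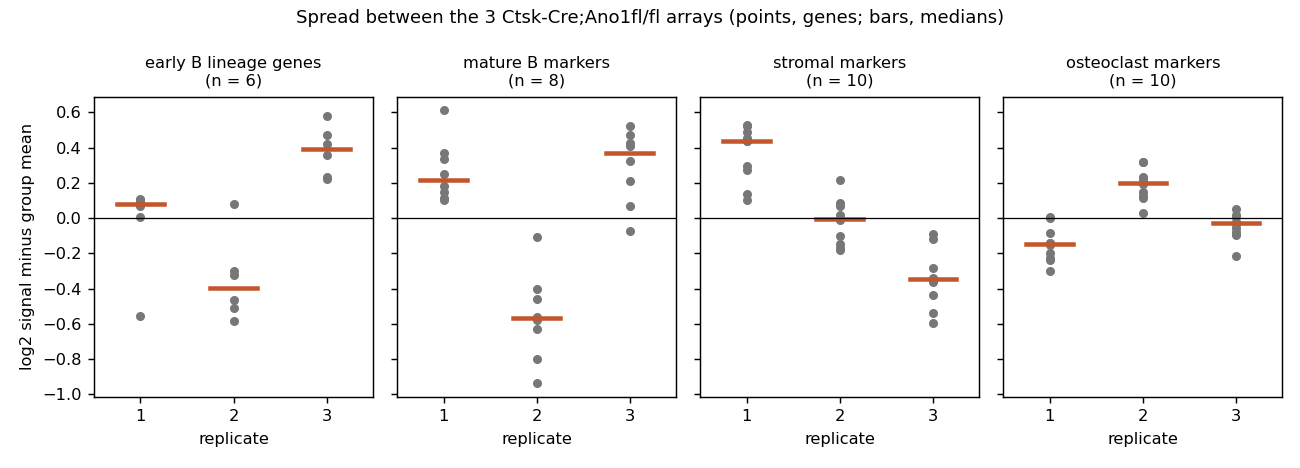
Deviation of each gene's log2 signal from its mean over the 3 Ctsk-Cre;Ano1fl/fl arrays (vertical axis) by replicate (horizontal axis), for 4 lists. Points are genes and bars are medians, which are lowest on replicate 2 for early B lineage genes (-0.40) and mature B cell markers (-0.57), on replicate 3 for stromal markers (-0.35) and on replicate 1 for osteoclast markers (-0.15).

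The genes whose profile lay nearest to that of Cd79b, the tested member with the highest mean signal, were Spib, Lynx1 and H2-Ob. Likeness was the root mean square difference between log2 profiles over the 6 arrays, each set to its own mean, and 13764 named genes were compared. It was 0.052 for Spib, an Ets factor of B cells and plasmacytoid dendritic cells, 0.086 for Lynx1 and 0.094 for H2-Ob, a chain of the class II antigen-loading regulator H2-O. Their own log2 differences were 1.91, 1.91 and 1.98.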

How the data were processed

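Total RNA of 6 osteoclast cultures was measured on Agilent one-colour arrays, all on 1 slide and read in 1 scan. The deposited scanner files hold intensities made by the authors with Agilent Feature Extraction 10.7.1.1 per the labels, with background subtracted and no normalization between arrays. The deposited series matrix held the median spot intensities (largest difference 0 over 62973 rows). The log2 of the processed signal was taken, outlier spots (143 to 252 per array) were treated as missing, control spots were left out, and arrays were quantile normalized in limma 3.58.1 (R 4.3.3), the algorithm that the methods name. Of the probes, 14 with missing values were left out. Testing required that all 3 arrays of either genotype mark the probe as well above background. The p-values of limma's moderated linear model were adjusted over 31848 probes (Benjamini-Hochberg). Lists used the brightest probe of a gene. Probe positions are those of the array files (mm9), no exon annotation of mm9 was used here, and promoter windows were taken from RefSeq. Files were handled with data.table (version 1.17.8) and pandas 2.3.3 in Python 3.11.15, and plots were drawn with matplotlib 3.10.9.

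The genes and lists were chosen with earlier results of these data known. Named genes are the 9 members, their near relatives, the largest 2 rises and 2 falls of each list among calls whose groups did not overlap, and the 3 profiles nearest to the brightest member. The value of 1 gene that this rule names is not reported here. Other list genes in the text were added after their values were seen. No rule fixed which genes were left out of list sums (Cd72, Ly6d and Lck). Ly6d and Lck were rises of their lists and Cd72 was not. The script was tested on simulated data. With 3 arrays per genotype, precision is limited by their number. Replicate numbers gave no sign of pairing the samples.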

Additional observations from a re-analysis of the deposited data

How the results depend on the processing

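The 9 tested probes of the early B lineage genes kept their direction under every alternative run, and 163 of their values stayed on the same side of the threshold and 1 did not. The exception was Vpreb1, whose log2 difference of -0.90 fell short when more than 2-fold was also asked for. That rule left 1 lower early B lineage probe, 2584 lower probes in all and 2838 higher ones. With 1 probe per gene name, the brightest, 4 early B lineage entries were higher and 5988 of all were lower. With the mean of a gene's tested probes 4 were higher, and 6305 of all were lower and 4570 higher. In both cases fewer features were tested. With no filter on dim probes the early B lineage probes lower were 3, since Igll1 then passed (limma adjusted p = 0.000486) at signals below the stricter background mark. Without normalization between arrays, an alternative chosen after seeing the data, the median log2 difference of all probes was -0.32 in place of -0.09, 3680 probes were higher, and 24.2% of calls were higher rather than 41.6% (35.6% with 75th percentile scaling). Same-numbered samples of the 2 genotypes had correlations of -0.02, -0.08 and -0.09, a different measure from the log2 signal correlations given above. The numbers thus gave no sign of pairing, which 3 arrays per genotype cannot settle. With the replicate block 14150 probes were called in place of 16690, and 7 early B lineage probes were higher and 2 lower. No sample correlated best with its own number. Leaving out each array in turn gave 13813 to 14916 calls, of which 7956 to 8673 were lower and 5797 to 6317 higher, with 7 and 2 early B lineage probes called each time. A slide block was not run because all arrays lay on 1 slide.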
